A study of Mus musculus with 30 samples.

Results

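The 8 genes described here encode secreted regulators of bone morphogenetic protein (BMP) signalling: the ligands Bmp2, Bmp3, Bmp4 and Gdf10, and the secreted antagonists Nbl1, Grem1, Chrdl1 and Fst. They are 8 of the 35972 genes that both RNA tables hold, and all 8 passed the filter on low values. The group was chosen by name with the RNA values of all 3 treatment groups known, so its RNA values are a description, and no p-value is given for any of the 8 genes. RNA was measured by poly(A) sequencing in primary fibroblasts of mouse tail tendon with a wildtype genotype, with 3 libraries each of cells given DMSO (the solvent control), blebbistatin at 10 µM or Y27632 at 30 µM. Blebbistatin inhibits non-muscle myosin II, the motor of actomyosin contraction, and Y27632 is a kinase inhibitor that reduces such contraction. All cells were grown with 10% serum and treated in medium with 0.1% serum. Accessible chromatin (ATAC) was measured in 9 libraries of the same 3 treatments, and 12 further genomic DNA libraries, 3 per group, received doxycycline at 10 ng/mL, blebbistatin at 10 µM, both or neither. The labels do not say what doxycycline induced, which assay these 12 libraries used, or whether libraries of a group came from separate animals or cultures. The p-values given for other genes therefore measure only the spread between these libraries, which may be technical.

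BMPs are secreted ligands of the TGF-beta superfamily that join type I and type II serine/threonine kinase receptors, after which Smad1, Smad5 and Smad9 are phosphorylated, bind Smad4 and act on target genes such as the Id genes. Secreted antagonists bind ligands outside the cell and keep them from their receptors, so the signal a cell receives depends on both. In tendon and its attachment to bone, BMP ligands are known for roles in development and in the formation of cartilage and bone.

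The promoter sequences below are those of the 4 genes of the group that matched by symbol in a RefSeq table (GRCm38.p6), and they include the 3 genes that were higher under both inhibitors by the largest factors and Bmp4, which was lower under both. Each is the 250 bases before the start that the table uses, 5′ to 3′ on the gene's strand, in lower case with matches to the searched motifs in capitals. For Gdf10, Grem1 and Bmp4 that start is the first base of the gene span given further on, read on the gene's strand, whereas for Nbl1 it lies inside the gene span, so that much of the Nbl1 window overlaps the annotated gene.
Gdf10 (chr14:33923337-33923586, plus strand): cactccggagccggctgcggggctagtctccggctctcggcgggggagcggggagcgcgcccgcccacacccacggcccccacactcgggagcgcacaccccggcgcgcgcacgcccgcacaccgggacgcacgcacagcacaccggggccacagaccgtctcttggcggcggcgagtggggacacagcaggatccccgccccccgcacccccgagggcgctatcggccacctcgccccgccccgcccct
Grem1 (chr2:113758649-113758898, minus strand): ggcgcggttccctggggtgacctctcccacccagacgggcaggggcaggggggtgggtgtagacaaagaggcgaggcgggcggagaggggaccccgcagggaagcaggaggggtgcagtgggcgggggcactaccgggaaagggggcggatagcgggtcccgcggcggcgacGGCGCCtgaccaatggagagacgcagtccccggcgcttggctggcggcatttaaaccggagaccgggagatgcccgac
Nbl1 (chr4:139092971-139093220, minus strand): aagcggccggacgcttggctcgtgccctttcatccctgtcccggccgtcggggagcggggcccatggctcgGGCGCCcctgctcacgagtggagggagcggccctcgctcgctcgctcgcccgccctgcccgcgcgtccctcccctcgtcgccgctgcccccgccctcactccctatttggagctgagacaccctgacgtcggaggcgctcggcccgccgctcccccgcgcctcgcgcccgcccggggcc
Bmp4 (chr14:46390670-46390919, minus strand): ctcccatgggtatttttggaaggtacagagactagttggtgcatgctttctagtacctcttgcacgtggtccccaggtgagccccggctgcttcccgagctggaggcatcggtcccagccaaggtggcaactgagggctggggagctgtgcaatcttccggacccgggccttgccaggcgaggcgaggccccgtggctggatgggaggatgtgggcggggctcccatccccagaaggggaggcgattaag
The capitals mark GGCGCC, the core of a BMP response element, found 78 bases before the table's start of Grem1 and 179 bases before that of Nbl1. This motif, a palindrome, was held by 9.59% of the 32851 promoters of the same length. The TEAD core GGAATG (12.6% of all promoters), the AP-1 site TGANTCA (6.75%) and the CArG box (1.47%), searched on both strands, had no match in these 4 windows. GC content was 78.8% for Gdf10, 77.6% for Nbl1, 72.0% for Grem1 and 63.2% for Bmp4, beside a median of 52.4% over all promoters. A match is a description of the letters and does not show that a factor binds there.

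RNA depth was 23375386 to 37061737 reads in genes per library. All 10 tendon fibroblast markers, among them Col1a1, Scx and Tnmd, had a mean normalised count of at least 10, whereas none of the 5 epithelial markers did. The same level was reached by all 5 macrophage and leukocyte markers. It was also reached by 4 of 5 pericyte and smooth muscle markers and 4 of 5 Schwann markers. Both tables hold the same 3 DMSO libraries, so the comparisons of the inhibitors with DMSO are not independent of each other. The tables were scaled separately, and the DMSO values in the Y27632 table are 1.04 times those in the blebbistatin table. Values below are the authors' normalised counts, that is reads divided by a size factor per library, and log2 changes are on the scale of log2(normalised count + 1). A gene is said to be called, to have risen or to have fallen where its Benjamini-Hochberg adjusted p was under 0.05. Levels are compared between libraries and never between genes, because no transcript lengths were used. In bulk libraries, fewer cells of a type and less RNA per cell cannot be told apart.

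With blebbistatin, 7 of the 8 genes were called by limma, 3 higher and 4 lower. Over all 14882 genes tested, 53.0% were called, 26.1% higher and 26.9% lower. Of the 8 genes, 6 were called with an absolute log2 change of at least 1, which held for 6.57% of all genes. In 7 of the 8 genes the blebbistatin and DMSO libraries did not overlap, as in 60.2% of all genes. With Y27632, all 8 genes were called, 6 higher and 2 lower. The background there was 35.9% of 14833 genes, 18.1% higher and 17.8% lower. Only Gdf10 and Grem1 had called Y27632 changes of 1 or more on the log2 scale in absolute size, beside 2.08% of all genes, and the libraries of all 8 genes did not overlap, as in 48.1% of all genes. The median absolute log2 change of the 8 genes was 1.70 with blebbistatin and 0.68 with Y27632, beside 0.22 and 0.15 over all genes. Since the genes were chosen with these values known, nothing is read from these shares. The plot of normalised counts by library shows every value behind them.

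**Figure D1:**
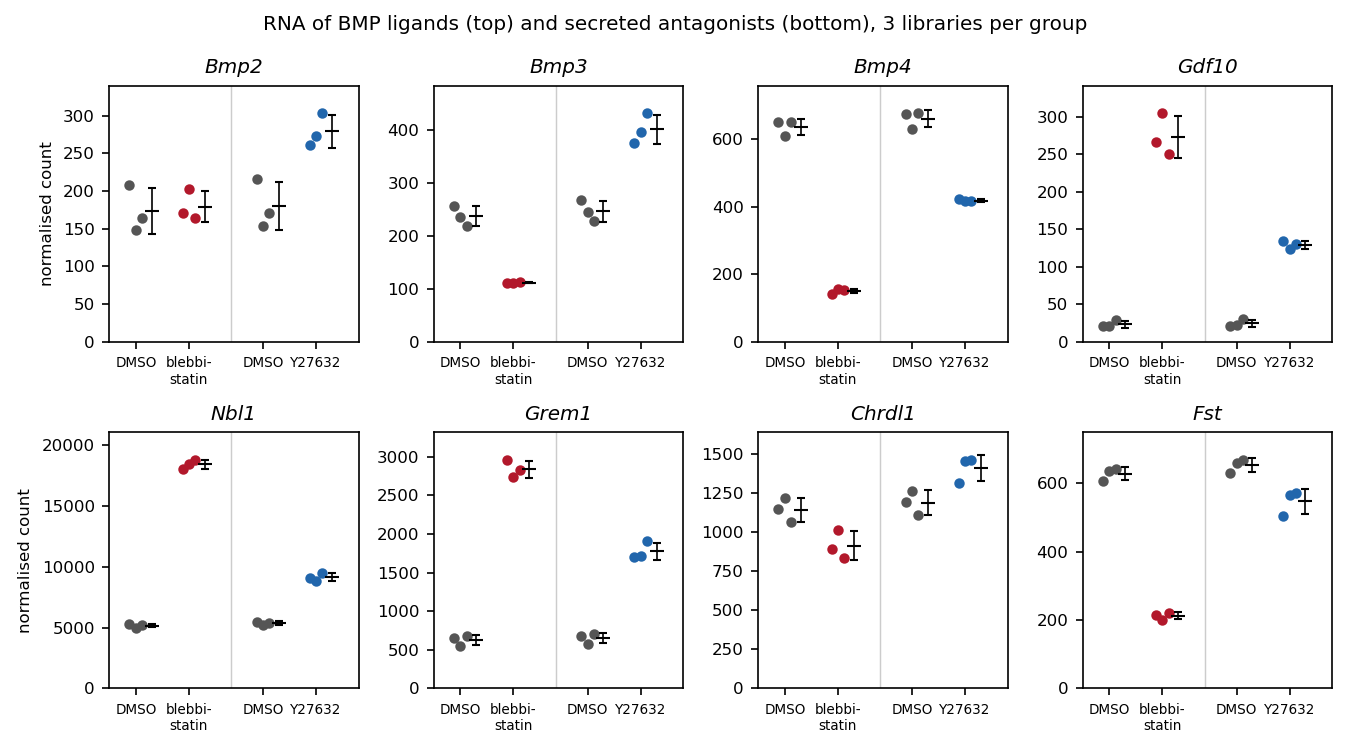
Normalised counts of the 8 genes in each RNA library (points) with the group mean and SD (black bars, n = 3); in each panel the left pair is the blebbistatin table and the right pair the Y27632 table, and the DMSO libraries are the same in both. Gdf10, Nbl1 and Grem1 sit above DMSO under both inhibitors, Bmp4 and Fst sit below it under both, and Bmp3 and Chrdl1 lie on opposite sides of DMSO.

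Among the ligands, Gdf10 had the largest change. Gdf10 (also called Bmp3b; chr14:33923587-33936514, GRCm38.p6) is a divergent family member closely related to Bmp3. It was low in DMSO, at 20.9, 21.0 and 28.7 normalised counts, and stood at 266, 304 and 249.9 with blebbistatin. In the Y27632 table it went from 21.7, 21.8 and 29.8 to 135, 124 and 130. Every treated library was thus far above every DMSO library, and the blebbistatin libraries were the highest. The log2 change was 3.50 ± 0.16 (SE) with blebbistatin, 11.6-fold on the means, and 2.37 ± 0.17 with Y27632, 5.30-fold on the means. Ranked from the most increased gene, Gdf10 was number 9 of 14882 with blebbistatin and number 10 of 14833 with Y27632. The DMSO values rest on few reads, 19 to 25 per library.

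Bmp4 (chr14:46383525-46390669) encodes a potent ligand that drives mesoderm and bone formation and is a binding partner of the antagonists Grem1 and Chrdl1. Its normalised counts were 649, 608 and 650.2 in DMSO and 142, 155 and 153 with blebbistatin. The 2 groups were widely separated, with a log2 change of -2.07 ± 0.07, or 4.23-fold lower on the means. In the Y27632 table Bmp4 went from 675, 631 and 676 to 422, 415 and 416, a log2 change of -0.66 ± 0.06. The Y27632 libraries lay between DMSO and blebbistatin and differed little among themselves. Blebbistatin placed Bmp4 as number 57 from the most decreased of 14882 genes.

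Bmp3 (chr5:98854415-98884053) encodes an atypical ligand known to oppose the bone-forming action of other BMPs. It was on opposite sides of DMSO under the 2 inhibitors. With blebbistatin it went from 257, 236 and 219 to 111, 112 and 113 normalised counts, a log2 change of -1.08 ± 0.10. With Y27632 it went from 267, 245 and 228 to 377, 397 and 432, a log2 change of 0.70 ± 0.08. No treated library overlapped DMSO in either table, and the blebbistatin libraries lay within 2 counts of each other.

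Bmp2 (chr2:133552159-133562896), which encodes a bone-inducing ligand close to Bmp4, was the only gene of the group not called with blebbistatin. Its normalised counts were 208, 148 and 164 in DMSO and 170, 203 and 164 with blebbistatin. These groups overlapped, and the log2 change of 0.06 ± 0.13 was within its error and turned to -0.05 without DMSO replicate 2 and to -0.03 without blebbistatin replicate 2. With Y27632 it went from 216, 153 and 171 to 262, 273 and 303, a log2 change of 0.64 ± 0.12. DMSO replicate 1 was the highest of the DMSO libraries, and all 3 Y27632 libraries were above it.

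Of the antagonists, Grem1 and Nbl1 were higher under both inhibitors. Grem1 (gremlin 1; chr2:113748675-113758648) is a DAN-family antagonist that binds Bmp2 and Bmp4. It stood at 657, 553 and 673 normalised counts in DMSO and at 2960, 2740 and 2823 with blebbistatin, a log2 change of 2.18 ± 0.07 and 4.53-fold on the means. In the Y27632 table it went from 683, 574 and 699.6 to 1705, 1718 and 1904, a log2 change of 1.45 ± 0.07. The lowest blebbistatin library of Grem1 was above the highest DMSO library by more than the full range within either group.

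Nbl1 (also called DAN; chr4:139082291-139093126) is the founding gene of the DAN family of antagonists. Its normalised counts were 5263, 4993 and 5205 in DMSO and 18048, 18432 and 18796 with blebbistatin. The change of 1.84 ± 0.03 on the log2 scale, 3.58-fold on the means, had the smallest error of the group. In the Y27632 table Nbl1 went from 5472, 5183 and 5409 to 9110, 8839 and 9527, a log2 change of 0.77 ± 0.04. The libraries of each group lay close together and the 3 treatments did not overlap.

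Fst (follistatin; chr13:114452262-114458989) binds activins most tightly and also some BMPs. It went from 606, 637 and 643 normalised counts in DMSO to 215, 201 and 221 with blebbistatin, a log2 change of -1.56 ± 0.07 and 2.96-fold lower on the means. With Y27632 the values were 629.7, 661 and 669 in DMSO and 504, 565 and 571 in treated cells, a log2 change of -0.26 ± 0.06. The direction was shared, and the Y27632 libraries were closer to DMSO than to blebbistatin.

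Chrdl1 (chordin-like 1; chrX:143285674-143394263) is a chordin-type antagonist that binds Bmp4. With blebbistatin it went from 1144, 1217 and 1064 normalised counts to 887, 1013 and 833, a log2 change of -0.33 ± 0.07. With Y27632 it went from 1189, 1263 and 1105 to 1315, 1451 and 1459, a log2 change of 0.25 ± 0.06. These were the smallest called changes with blebbistatin and with Y27632 in the group, and like Bmp3 it lay below DMSO with one inhibitor and above it with the other.

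The inhibitors were then compared directly with edgeR on the reads recovered from the normalised counts, over all 9 libraries on 1 scale of CPM (reads scaled to a common library total). All 8 genes were called, with blebbistatin above Y27632 for 3 and below it for 5, where the background was 53.1% of 14955 genes, 26.9% higher and 26.2% lower. Of the 8 genes, 5 differed by an absolute log2 value of at least 1, beside 5.33% of all genes. The 2 treated groups did not overlap for any of the 8, as for 60.6% of all genes. Nothing is read from these shares either, because the genes were chosen with these values known. Bmp3 had the largest difference, at 4.22 ± 0.036 CPM (SD, n = 3) with blebbistatin and 14.6 ± 0.965 CPM with Y27632, beside 8.94 ± 0.701 CPM in DMSO. Its log2 difference was -1.77 ± 0.09 (SE). Bmp4 was at 5.67 ± 0.284 CPM with blebbistatin and 15.2 ± 0.167 CPM with Y27632, a log2 difference of -1.40 ± 0.07. The difference was -1.30 ± 0.07 for Fst, -0.56 ± 0.12 for Bmp2 and -0.56 ± 0.07 for Chrdl1. The 3 genes that were higher under both inhibitors were higher with blebbistatin, by 1.15 ± 0.11 for Gdf10, 1.08 ± 0.03 for Nbl1 and 0.75 ± 0.06 for Grem1. The plot of log2 changes sets the 3 comparisons side by side. The doses of the 2 compounds differ, and no dose series was measured.

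**Figure D2:**
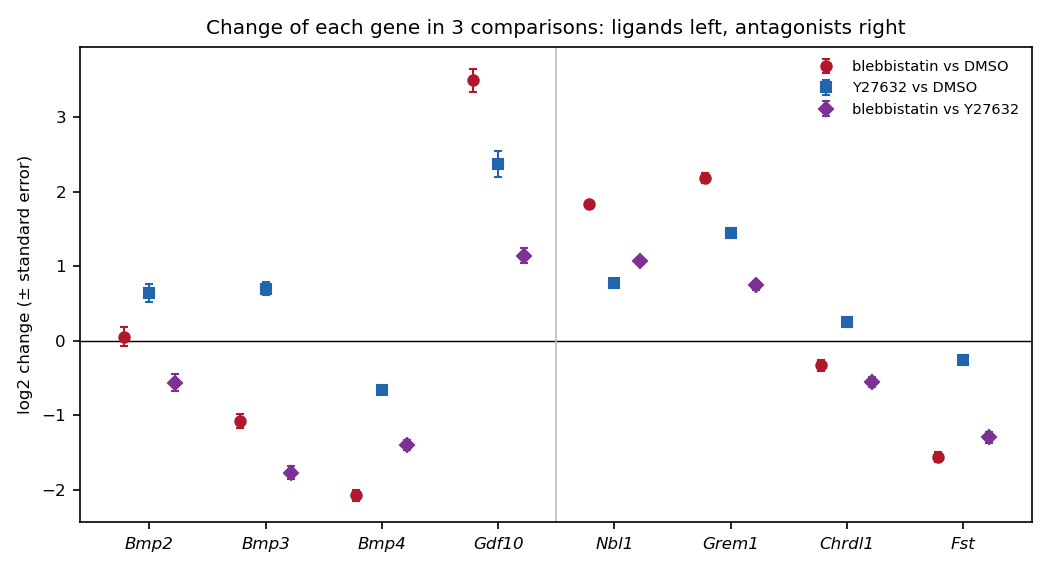
Log2 change of each gene (vertical axis, with standard error) for blebbistatin against DMSO, Y27632 against DMSO and blebbistatin against Y27632; ligands are on the left and antagonists on the right. The values run from -2.07 for Bmp4 to 3.50 for Gdf10, and Bmp3 has the widest gap between the inhibitors.

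The genes with the most similar profile were found among 11465 genes with a mean of at least 100 reads. The measure was the smallest root mean square difference of log2 CPM over the 9 libraries, each gene centred on its DMSO mean. A small offset was added to CPM before the log2, which shrinks the changes of genes low in DMSO, such as Gdf10. For Bmp4 these were Lurap1l at 0.08 and Fhl2, a LIM-domain protein gene, at 0.09. Fst was nearest to Adamts1, a secreted metalloproteinase gene, at 0.06. Bmp3 was nearest to the ephrin receptor gene Epha2 at 0.12 and the Wnt antagonist gene Dkk2 at 0.12, both of which were lower with blebbistatin and higher with Y27632, as Bmp3 was. Nbl1 was nearest to Fam189a2 at 0.07 and Ramp2 at 0.09. Grem1 and Gdf10 had no neighbour as close: Abca1 was at 0.19 and Hmgcll1 at 0.23 from Grem1, and Lrrc4 was at 0.32 and Nptx1 at 0.34 from Gdf10. These distances describe 9 libraries and were not tested.

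A further 75 genes were read, of which 57 passed the filter. They cover the rest of the pathway and related ligands, among them activin subunits, whose changes are not changes of BMP ligands. With blebbistatin 19 of the 57 rose and 18 fell, with Y27632 13 rose and 15 fell, and between the inhibitors 20 were higher and 18 lower with blebbistatin. The called share of the 57 genes was 64.9%, 49.1% and 66.7% in the 3 comparisons, beside 53.0%, 35.9% and 53.1% of all genes, and these lists were chosen with earlier results known. Among the other ligands, 10 of 19 were tested, and 5 rose and 3 fell with blebbistatin. Gdf6, a ligand with a known role in joints and tendon, fell by 2.23 ± 0.18 on the log2 scale (limma adjusted p = 5.33e-07). Inhba, the activin A subunit whose product Fst binds, fell by 1.68 ± 0.05 (limma adjusted p = 4.73e-11), and Bmp5 rose by 1.45 ± 0.13 (limma adjusted p = 1.08e-06). Gdf15, a stress-induced ligand, rose by 1.15 ± 0.27 (limma adjusted p = 0.00304). With Y27632, 2 ligands rose and 3 fell, with Inhbb, another activin subunit, up by 1.05 ± 0.05 (limma adjusted p = 7.04e-09) and Gdf6 at -1.01 ± 0.10 (limma adjusted p = 7.22e-06). The log2 change of Bmp6 with Y27632 was -0.95 ± 0.05 (limma adjusted p = 2.16e-08). Bmp6 also fell with blebbistatin, at -1.51 ± 0.06 (limma adjusted p = 6e-10). Between the inhibitors, Inhba was lower with blebbistatin by -1.80 ± 0.06 (edgeR adjusted p = 3.38e-11).

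Among the other secreted antagonists and modulators, 14 of 20 were tested, and 5 rose and 7 fell with blebbistatin. Nog, which encodes the BMP antagonist noggin, fell by 1.55 ± 0.19 (limma adjusted p = 1.88e-05), and Tll1, a protease that cleaves chordin, fell by 1.19 ± 0.09 (limma adjusted p = 2.66e-07). With Y27632 4 rose and 5 fell, with Fstl3, a follistatin relative, at -1.24 ± 0.15 (limma adjusted p = 3.28e-05). Fstl3 also fell with blebbistatin, at -0.73 ± 0.14 (limma adjusted p = 0.000751). Nog was lower with blebbistatin than with Y27632 by a log2 difference of -1.46 ± 0.18 (edgeR adjusted p = 8.62e-06). The list's name thus covers members that moved both ways, as in the 4 antagonists described above.

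Of 16 receptors and co-receptors, 14 were tested, and 3 rose and 3 fell with each inhibitor. Acvr1c was too low to be tested, and Hjv had no entry under that symbol in the RNA data. With blebbistatin the type II receptor gene Acvr2a fell by 0.77 ± 0.04 (limma adjusted p = 1.3e-08) and Bmpr2, the type II BMP receptor, fell by 0.32 ± 0.06 (limma adjusted p = 0.000584). The co-receptor Rgmb rose by 0.88 ± 0.05 (limma adjusted p = 2.28e-08), as did the pseudoreceptor Bambi, by 0.81 ± 0.09 (limma adjusted p = 9.01e-06). All 8 Smads and ubiquitin ligases were tested, and 1 rose and 4 fell with blebbistatin and 1 rose and 2 fell with Y27632. The inhibitory Smad6 fell by 1.07 ± 0.09 with blebbistatin (limma adjusted p = 1.01e-06) and by 0.64 ± 0.07 with Y27632 (limma adjusted p = 1.15e-05). Smad9 rose by 0.69 ± 0.08 with blebbistatin (limma adjusted p = 8.98e-06) and fell by 0.53 ± 0.09 with Y27632 (limma adjusted p = 0.000573).

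Of 12 BMP response genes, 11 were tested, and 5 rose and 1 fell with blebbistatin, while 3 rose and 2 fell with Y27632. The called share was 54.5% and 45.5%, beside 53.0% and 35.9% of all genes. Id1, a direct target of Smad-dependent BMP signalling, rose by 0.98 ± 0.11 with blebbistatin (limma adjusted p = 1.41e-05) and by 0.44 ± 0.10 with Y27632 (limma adjusted p = 0.0049). Hey1 rose by 1.74 ± 0.40 with blebbistatin (limma adjusted p = 0.00268), and Id4 fell by 0.996 ± 0.15 (limma adjusted p = 0.000104). Hey1 was low in DMSO, at 7.9, 3.3 and 6.9 normalised counts, and stood at 30.1, 23.8 and 13.8 with blebbistatin. Its DMSO mean of 6.05 was under the level of the filter, which Hey1 passed through its treated libraries. The change and p-value of Hey1 thus rest on few reads, and it is among the genes counted as risen with each inhibitor. With Y27632, Id3 fell by 0.21 ± 0.05 (limma adjusted p = 0.0036) and Id4 by 0.35 ± 0.11 (limma adjusted p = 0.0312). Id3 was higher with blebbistatin than with Y27632 by 0.93 ± 0.04 (edgeR adjusted p = 4.84e-10). The median log2 change of the 57 genes was -0.000147 with blebbistatin and -0.07 with Y27632, beside 0.00 for all genes tested in each comparison.

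**Figure D3:**
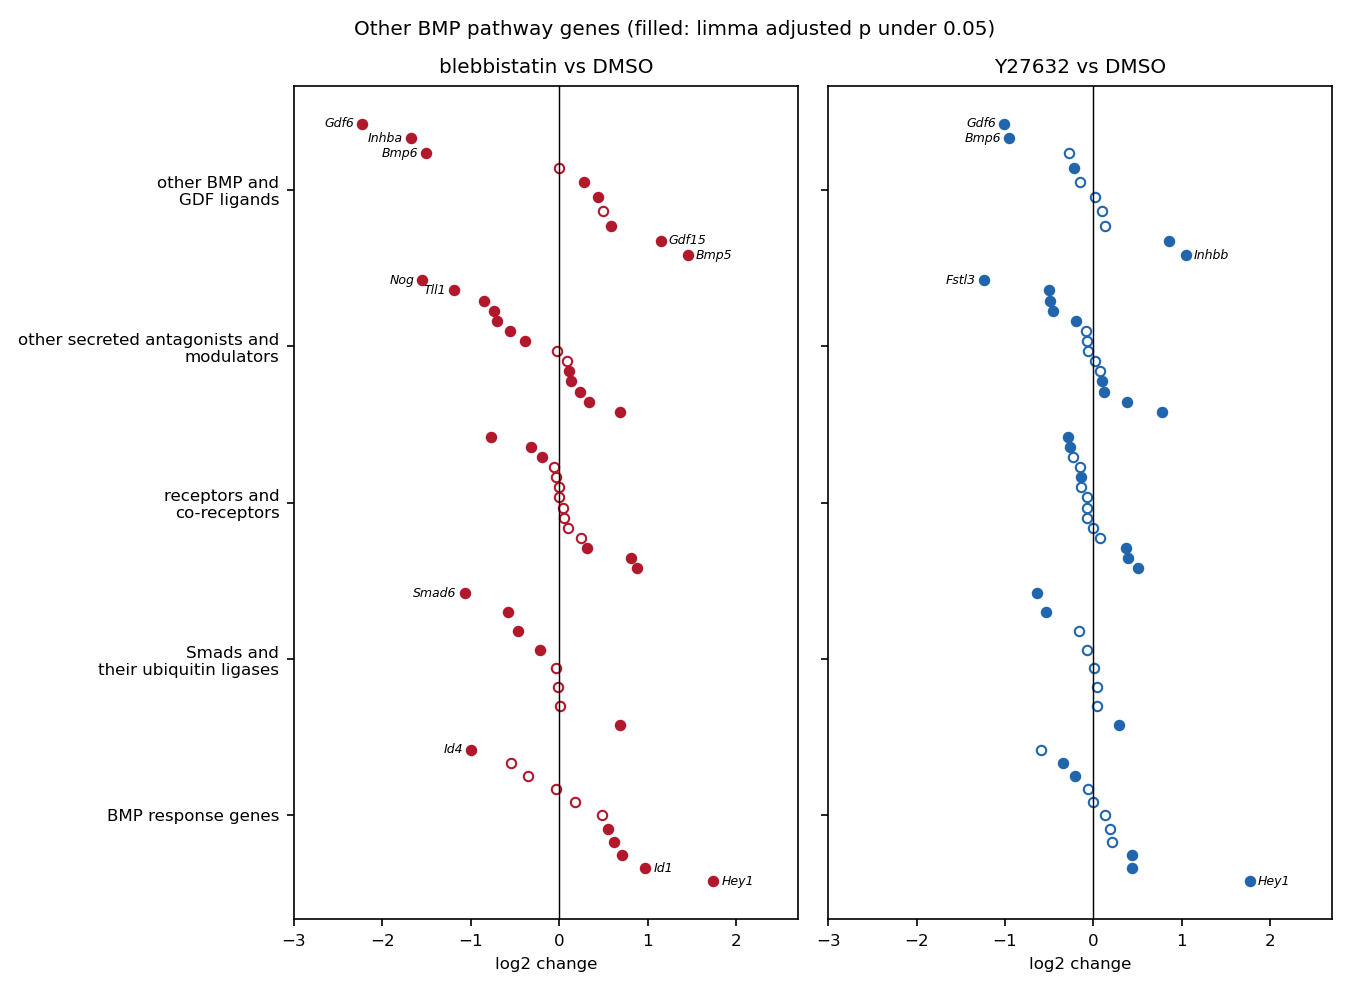
Log2 change against DMSO (horizontal axis) of the 57 tested genes of 5 pathway lists, one point per gene, for blebbistatin (left) and Y27632 (right); filled points have a limma adjusted p under 0.05. With blebbistatin 19 are higher and 18 lower, and with Y27632 13 are higher and 15 lower.

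Some markers of other cell types moved with the treatments, while others were not called or moved both ways within a list. All 5 macrophage and leukocyte markers rose with each inhibitor; their summed normalised counts went from 5588 to 6185 in DMSO to 8019 to 9009 with blebbistatin, and from 5802 to 6430 in DMSO to 8463 to 9642 with Y27632, and 0 of 5 were called between the inhibitors. Chondrocyte markers summed to 423 to 482 in DMSO and 639 to 717 with blebbistatin, and 2 of 3 tested rose with each inhibitor. The 2 were Comp and Sox9, which make up most of that sum. Col2a1 was not called with either inhibitor, and Acan and Matn3 were too low to be tested. Of 5 endothelial markers 3 were tested: Tek, which makes up most of their sum, fell by 0.63 on the log2 scale with blebbistatin (limma adjusted p = 1.08e-07), while the log2 changes of Cdh5 and Kdr were 0.30 and 0.60 and were not called. Of 5 osteoblast markers 2 were tested. Phex rose by 1.83 ± 0.23 with blebbistatin (limma adjusted p = 2.23e-05) and by 1.03 ± 0.26 with Y27632 (limma adjusted p = 0.00839). Alpl was not called with either inhibitor. Of 4 tested Schwann markers, 2 rose and 1 fell with blebbistatin. Of the 5 skeletal muscle markers 2 were at 0 in every library. The part of these cells in the values of the 8 genes was not tested.

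Chromatin sites were read from 5 lists that the authors deposited, which hold group means and no value per library, so every fold and FDR below is theirs. Coordinates are on mm10 as the lists give them, and a site is linked to a gene as the nearest start in the authors' annotation. The links were part of how the group was chosen, and no site is tested here. The lists of the doxycycline experiment are named as cut on fold and FDR. A site absent from them may thus exist, or may have changed by less than the cuts ask. In the ATAC experiment, 2 of the 970 sites listed for blebbistatin were annotated to the group, both to Bmp4 and both lower, as were 98.2% of the listed sites. The site chr14:46475647-46475972, intergenic and 85141 bp before the start of Bmp4, had a mean of 6.37 on the authors' log2 scale in DMSO and 4.30 with blebbistatin, a log2 fold of -2.07 (FDR 0.0032). The same interval was the only site of the group among the 207 listed for Y27632, of which 85.0% were lower, with means of 6.28 and 4.80 and a log2 fold of -1.49 (FDR 0.0177). The second site, chr14:46436374-46437121, 46079 bp before the start of Bmp4, went from 8.64 to 6.90 with blebbistatin, a log2 fold of -1.73 (FDR 0.0389).

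This second Bmp4 site was listed by the authors with matches to the motif of TEAD, the DNA-binding partners of Yap and Taz, named in the series title. Both are on the plus strand, and the capitals mark the TEAD core GGAATG, which only the first match holds.
First match: aGGAATGcaa
Second match: aggaattcga
Of the 970 blebbistatin sites, 62.2% had at least 1 listed match and 20.6% had 2 or more. The Bmp4 site farther from the gene had none listed, and it is narrower, at 325 bp beside 747 bp.

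In the doxycycline experiment, blebbistatin given with doxycycline had 6346 listed sites, and 9 were annotated to the group, all lower, as were 99.8% of the list. Bmp3 had 3 of them, Bmp2 and Grem1 had 2 each, and Bmp4 and Fst had 1 each. The Bmp2 site with the lowest FDR was chr2:133443449-133443860, 108504 bp before the start, with a log2 fold of -1.04 (FDR 2.66e-08). For Bmp3 it was chr5:98890530-98890904, 36302 bp after the start, at -1.08 (FDR 7.79e-08). For Grem1, whose RNA was higher with blebbistatin in the RNA experiment, it was chr2:113773316-113773632, 14826 bp before the start, at -1.23 (FDR 4.28e-06). The Fst site chr13:114508388-114508512 was at -1.13 (FDR 0.00338) and the Bmp4 site chr14:46478886-46479030 at -1.04 (FDR 0.00369). RNA was not measured with doxycycline.

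Doxycycline without blebbistatin had 7613 listed sites, of which 8 were annotated to the group, all higher, as were 95.8% of the list. The reference column of that list was read as the group with neither agent, as the labels assign it. Bmp4 had 4 of the sites, Bmp3 and Fst 2 each. The Bmp4 site with the lowest FDR, chr14:46387228-46387753, lies in intron 1 of the gene, 3178 bp after the start, at 1.19 (FDR 1.6e-06). For Fst it was the intergenic site chr13:114493948-114494144 at 1.84 (FDR 3.21e-07), and the other Fst site, chr13:114458986-114459318, was the only one of the 8 annotated as a promoter, at 1.21 (FDR 6.44e-06). For Bmp3 it was chr5:98696568-98696680, in an intron of another transcript 157791 bp before the start, at 1.09 (FDR 0.0121). Blebbistatin without doxycycline had 1231 listed sites, 99.0% of them lower, and 0 annotated to the group.

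Some sites recurred between lists. The interval chr14:46478886-46479030 near Bmp4 was at 1.43 with doxycycline and -1.04 when blebbistatin was added, and chr5:98696568-98696680 near Bmp3 was at 1.09 and -1.08. Both contrasts use the group with doxycycline and no blebbistatin, so their signs are not independent. The Bmp4 site with TEAD matches overlapped the doxycycline site chr14:46436362-46436957 by 583 bp, and that site had a log2 fold of 1.01 with doxycycline (FDR 8.4e-05). Gdf10, Nbl1 and Chrdl1 had no listed site annotated to them in any of the 5 lists. The plot of folds by distance shows where the sites lie.

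**Figure D4:**
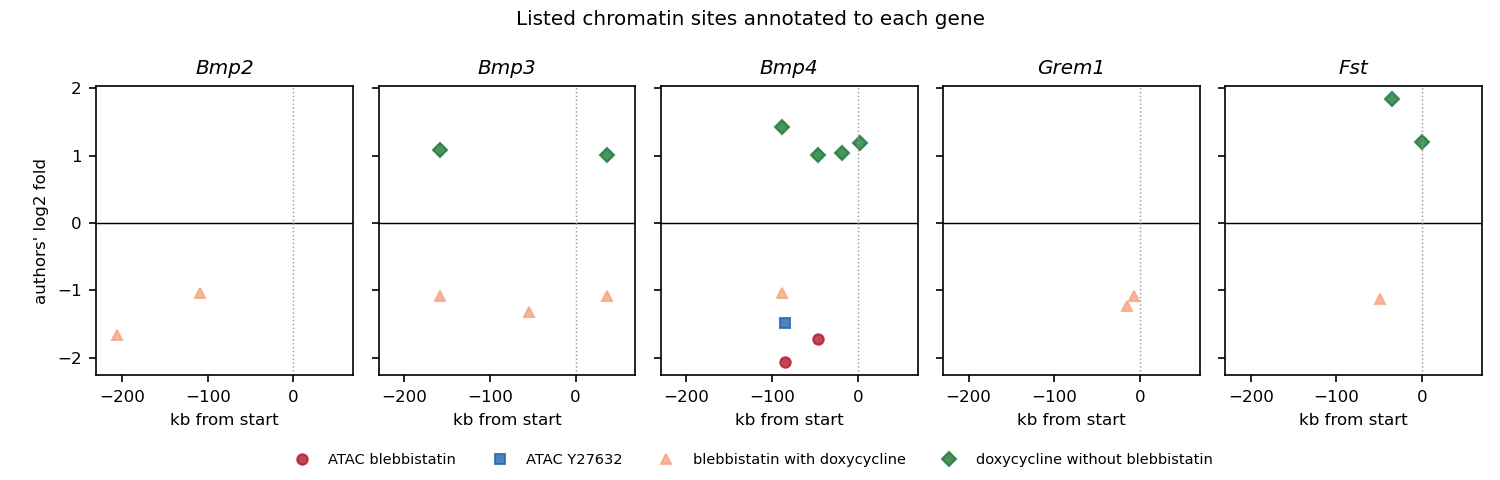
Log2 fold given by the authors (vertical axis) of each listed site against its distance from the annotated gene start in kb (horizontal axis; negative values lie before the start), for the 5 genes with a listed site; symbols stand for the list. Sites of the 2 ATAC lists and of blebbistatin with doxycycline are all below 0, and those of doxycycline without blebbistatin are all above 0.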

How the data were processed

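Poly(A) RNA of 9 libraries and chromatin sites of 21 genomic DNA libraries were used; HISAT2, featureCounts, Picard, DESeq2, Bowtie2, SAMtools, MACS2, DiffBind and HOMER, with mm10, are named in the submitters' processing notes, without versions or roles. The RNA values are a signal that the authors deposited as reads divided by 1 size factor per library; 100% of them came out as whole reads within 0.1 reads, and the recovered DMSO reads were identical in both tables. Strand use in counting is not given in the sources used here, and lncRNA genes overlap Bmp3, Bmp4 and Fst. For sites, the authors deposited group means and folds on a log2 scale with a p-value and an FDR each, and the distance to the nearest start is another value of their annotation, per the file headers. In the list of doxycycline without blebbistatin, the header of the reference values names the blebbistatin group; at 13 sites shared with the list of blebbistatin without doxycycline they differed from the group with neither agent by -0.13 ± 0.0044 (SD), and from the headed group by 1.12 ± 0.18.

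Genes whose normalised counts averaged 10 or more were tested with limma 3.58.1 (trend, log2 of the value + 1) in R 4.3.3; the inhibitors were compared with edgeR 4.0.16 (quasi-likelihood, TMM) on recovered reads with a mean of at least 10, because the tables were scaled separately. Adjusted p-values are Benjamini-Hochberg over all genes tested. The standard errors of the edgeR differences were derived as the absolute log2 difference divided by the square root of the quasi-likelihood F statistic. The design assumed normalised counts, as found. On simulated data with known changes, 92.5% of genes changed by an absolute log2 value of 1 were recovered in each comparison with DMSO, and of those changed by 0.5, 56.1% with blebbistatin and 53.0% with Y27632. The simulation changed few genes and gave every gene the same setting for spread. These shares need not hold for the data, where far more genes were called. Alternatives were the pseudocount, the filter, the scaling, edgeR and DESeq2 1.42.0 on recovered reads, the replicate block, each library left out, and stricter site thresholds.

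The members and lists were chosen with earlier results of these data known. Named were the 8 genes, the 2 largest changes each way among called genes of each pathway list and comparison (of which the text gives a part, and some are not reported here), the 2 nearest profiles of genes with an absolute log2 change of at least 1 against DMSO, and per gene and list the site with the lowest FDR. The second ATAC site of Bmp4, the promoter site of Fst, sites that lists share and sites annotated to other genes were named after their values were seen. Sample columns without a matching label numbered 0. Promoters come from RefSeq (GRCm38.p6).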

Additional observations from a re-analysis of the deposited data

Results flagged for a closer look

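In 6 of the 65 tested genes of the group and its pathway lists, all 3 blebbistatin libraries lay on one side of the DMSO libraries and all 3 Y27632 libraries on the other, and the inhibitors differed in the direct comparison by edgeR. The same held for 580 of 14678 genes tested in all 3 comparisons, or 3.95%, and since the genes and lists were chosen with earlier results known, nothing is read from this share. Both comparisons use the same DMSO libraries, while the direct one contrasts the treated libraries. Of the group itself, Bmp3 had a log2 difference of -1.77 ± 0.09 (SE) and Chrdl1 of -0.56 ± 0.07 between blebbistatin and Y27632; both were chosen with these values known. Smad9, which carries the BMP signal, differed by 1.23 ± 0.08 (edgeR adjusted p = 9.61e-09), and Id3, a BMP target, by 0.93 ± 0.04 (edgeR adjusted p = 4.84e-10). Smurf2, a ubiquitin ligase that acts on Smads and receptors, differed by -0.74 ± 0.04 (edgeR adjusted p = 1.02e-09), and the ligand Gdf11 by 0.51 ± 0.06 (edgeR adjusted p = 3.22e-06).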

How the results depend on the processing

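The log2 changes of the 8 genes kept their direction under all alternatives but 2: Bmp2 with blebbistatin went from 0.06 to -0.048 without DMSO replicate 2 and to -0.03 without blebbistatin replicate 2, within a leave-one-out range of -0.048 to 0.19. The counts of the group called stayed at 7, 8 and 8 under every alternative. At an FDR of at most 0.01, the ATAC sites annotated to the group were 1 with blebbistatin instead of 2, and 0 with Y27632 instead of 1. Leaving out 1 library gave 6994 to 7394 genes called with blebbistatin, 4304 to 4839 with Y27632 and 7166 to 7985 between the inhibitors. No pairing by replicate number was seen: deviations of same-numbered libraries correlated at -0.09 to 0.04, and libraries did not all correlate best with their own number. With 3 libraries per group, this check cannot exclude a weak shared factor. With the replicate number as a block, 7604, 4633 and 7700 genes were called instead of 7894, 5328 and 7935, and of the pathway lists 36, 24 and 37 genes instead of 37, 28 and 38. The largest shift of the median log2 change of all genes was 0.01. Gdf10 in DMSO rests on 19 to 25 reads per library, which limits its fold, and the site lists give no depth.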

Other observations

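Within 100 kb of the genes, some listed sites are annotated to other genes. At chr4:139030765-139030980, annotated to Htr6 and near Nbl1, the authors' log2 fold was 1.67 with doxycycline (FDR 4.61e-08) and -1.06 when blebbistatin was added (FDR 1.2e-05). At chr13:114420215-114420534, annotated to Ndufs4 and near Fst, it was -1.21 with blebbistatin and doxycycline (FDR 4.96e-06). The promoter site chr2:113848914-113849113 of Arhgap11a, near Grem1, was at 1.07 with doxycycline (FDR 0.000366). Near Bmp4, chr14:46301641-46301826, annotated to the lncRNA gene Gm15217, was at -1.18 with blebbistatin and doxycycline (FDR 0.000876). No listed site lay that close to Bmp2, Gdf10 or Chrdl1.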
